A study of Homo sapiens with 18 samples.

Results

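The genes described here are 40 human genes of protein folding in the endoplasmic reticulum (ER), where secreted and membrane proteins are made. They comprise chaperones and their partners, disulfide-forming enzymes, lectins and degradation factors, stress sensors and parts of the protein channel. A gene was represented by the probe set whose platform annotation named that gene alone, and where several did, by the probe set with the highest mean over all arrays. By this rule 37 of the 40 genes had a probe set, as had 19775 genes on the whole array. PDIA5, TXNDC5 and SYVN1 occurred only in probe sets that named several genes and were not used. The probe set of ERO1B lay below the filter on dim probe sets, so 36 genes were tested, beside 12319 genes of the array chosen in the same way.

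Messenger RNA was measured on Affymetrix arrays in Caco-2 cells, an established line from a human carcinoma of the colon that serves to model intestinal epithelium. Control cells were grown in DMEM, and depleted cells in DMEM lacking riboflavin, the vitamin from which the flavin cofactors FMN and FAD are made. The serum was foetal calf serum at 10%, dialysed for a part of the work, and the sources used here do not say for which arrays. Both media were sampled at 24, 48 and 72 h, with 3 arrays in each of the 6 groups and 18 arrays in all. The sample numbering ran through the 6 groups once for each replicate number, so the arrays form 3 sets with 1 array of every group. The titles of the control 24 h, depleted 24 h and control 48 h arrays of set 2 carry an extra suffix whose meaning is not stated. No source states whether the 3 arrays of a group came from separate cultures. The p-values therefore speak of the spread among these samples, which may be technical. All values come from 1 cell line without a second line for comparison.

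Set 2 stood apart, with median signals of 25.7 to 31.3 against 18.4 to 23.3 in the other sets. Its maximum signals were 27380.2 to 31409.8, against 6904.8 to 8574.5 in the other sets. Results are therefore also given without set 2. Of the 8 epithelial markers, 7 had a probe set and all 7 lay above the filter, with EPCAM at signals of 4511.2 to 13001.4. The differentiation marker KRT20 was dim, at 2.6 to 51.2. None of the 7 was called in the averaged effect of depletion. Summed signals of the epithelial markers were 18400 to 31000 in control and 17800 to 28000 in depleted arrays. Marker sums of leukocytes were 112 to 268 and 182 to 322, those of fibroblasts 440 to 715 and 347 to 622, and those of endothelium 39.7 to 84.7 and 52.0 to 88.8. The leukocyte marker PTPRC, the endothelial markers VWF and CDH5 and the fibroblast marker COL1A2 lay below the filter, although no marker was at 0. Of 5 leukocyte markers 3 had a probe set. Above the filter lay 2 of these, 4 of 5 fibroblast markers and 1 of 3 endothelial markers. LYZ read 83.7 to 290.5, COL1A1 113.3 to 459.9 and COL3A1 73.8 to 255.1, beside 57.4 to 215.1 for the epithelial CDX2. CD3E, DCN, LUM and PECAM1 were dimmer, at 2.0 to 79.0. LYZ (log2 0.39, adjusted p = 0.0157) and LUM (0.35, 0.0308) were higher and COL1A1 (-0.61, 0.0223) lower in depleted cells on average, and their part in the results was not tested.

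New proteins enter the ER through the SEC61 channel and are bound by BiP, the HSP70 chaperone encoded by HSPA5, which works with J-domain partners and with GRP94, the product of HSP90B1. Disulfide bonds are introduced by protein disulfide isomerases, which are reoxidised by the FAD-containing oxidases ERO1A and ERO1B, while QSOX1 is a further FAD-containing sulfhydryl oxidase. Calnexin and calreticulin hold glycoproteins until they are folded, and proteins that fail are passed out of the ER for degradation. When unfolded proteins accumulate, the sensors IRE1 (ERN1), ATF6 and PERK start the unfolded protein response, in which IRE1 splices the mRNA of the transcription factor XBP1. ATF6 and XBP1 are known to act on chaperone genes through short promoter elements called ERSE, ERSE-II and UPRE.

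Promoters from RefSeq (GRCh38.p14), covering 250 bases before to 50 bases after the annotated start, were found for 37 of the 40 genes, and PDIA3, DERL1 and DERL3 had no entry. Both strands were searched for ERSE (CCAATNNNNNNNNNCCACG), ERSE-II (ATTGGNCCACG) and the UPRE core (TGACGTG), in exact letters. A gene counts once however many promoters it has. Of the 35116 promoters, 0.0769%, 0.0541% and 1.97% hold the 3 elements. ERSE occurred in 8 of the 37 genes (CALR, CANX, CRELD2, ERO1B, HSP90B1, HSPA5, PDIA6 and XBP1) and in 25 of all 27305 genes of the table, or 0.0916%. ERSE-II occurred in 3 genes (HERPUD1, HYOU1 and SDF2L1) and in 0.0696% of all genes. The UPRE core occurred in 4 genes (DNAJC10, HYOU1, TXNDC11 and TXNDC5) and in 2.4% of all genes, and in HYOU1 it overlaps an ERSE-II. The elements of the 7 genes that hold ERSE or ERSE-II and were called in the averaged effect below are shown to set the promoter letters beside the direction of each change. They are written 5′ to 3′ on the strand of the gene, with the element in capitals and 15 bases on either side. Where the element lies on the other strand, its reverse complement is in capitals. HYOU1 with ERSE-II (-0.16) and CALR and CANX with ERSE (-0.40 and -0.19) were not called in that effect with all sets. ERO1B, with ERSE, was below the filter. The elements of these genes are not shown.

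SDF2L1, ERSE-II, chr22:21642099-21642139, plus strand: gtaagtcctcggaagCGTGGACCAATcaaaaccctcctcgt

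HERPUD1, ERSE-II, chr16:56932010-56932050, plus strand: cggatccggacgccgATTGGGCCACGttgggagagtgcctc

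HSP90B1, ERSE, chr12:103930201-103930249, plus strand: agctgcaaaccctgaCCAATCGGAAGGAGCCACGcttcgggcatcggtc

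HSP90B1, ERSE, chr12:103930306-103930354, plus strand: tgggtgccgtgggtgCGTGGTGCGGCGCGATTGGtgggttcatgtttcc

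CRELD2, ERSE, chr22:49918539-49918587, plus strand: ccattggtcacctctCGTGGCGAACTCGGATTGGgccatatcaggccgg

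HSPA5, ERSE, chr9:125241376-125241424, minus strand: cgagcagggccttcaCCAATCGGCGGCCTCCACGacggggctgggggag

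PDIA6, ERSE, chr2:10812838-10812886, minus strand: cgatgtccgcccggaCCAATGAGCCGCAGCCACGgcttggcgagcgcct

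XBP1, ERSE, chr22:28800588-28800636, minus strand: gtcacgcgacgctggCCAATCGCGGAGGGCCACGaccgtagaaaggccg

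The elements printed ended 34 to 178 bases before the annotated start, with XBP1 at 34, HSPA5 at 48 and SDF2L1 at 178. A match is a description of letters and not of binding. Among these genes HERPUD1 was higher in depleted cells and the other 6 were lower. MANF, PDIA4, ERN1 and SEC61B, also called in the averaged effect, had no match to ERSE or ERSE-II in this window. Of them ERN1 was higher and MANF, PDIA4 and SEC61B were lower. A link between the elements and the changes was not tested.

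Averaged over the 3 times, 9 of the 36 genes tested were lower and 2 higher in depleted cells (limma, set as a block, Benjamini-Hochberg adjusted p under 0.05 over all probe sets tested). These were 25.0% and 5.56% of the 36, where 8.81% of the 12319 genes tested were lower and 8.4% higher. The 12319 genes were not matched to the 36 in signal level. Lower were the chaperones and partners SDF2L1, HSP90B1, HSPA5, MANF and CRELD2, the isomerases PDIA4 and PDIA6, the transcription factor XBP1 and the channel subunit SEC61B. The degradation factor HERPUD1 and the sensor ERN1 were higher. The median change of the 36 was -0.16 on the log2 scale against 0.00 over all genes, with 28 of 36 below 0 against 49.7% of all genes. In sets 1, 2 and 3 taken singly the median was -0.15, -0.13 and -0.15, with 26, 27 and 29 genes below 0. For single sets the values over all genes were not computed, so these do not show a change particular to the 36. RNA from whole cultures cannot tell fewer expressing cells from less RNA per cell. The calls rest on the pairing of arrays by set. Without the block only SDF2L1 and CRELD2 were called, where 4.64% of all genes were. Leaving out set 2 kept SDF2L1, HSP90B1, MANF, PDIA4, XBP1, HERPUD1 and ERN1 among 10 calls (13.9% of all genes). Leaving out set 1 left SDF2L1 and HSP90B1 (2.59% of all genes), and leaving out set 3 left SDF2L1 (2.39%).

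**Figure D1:**
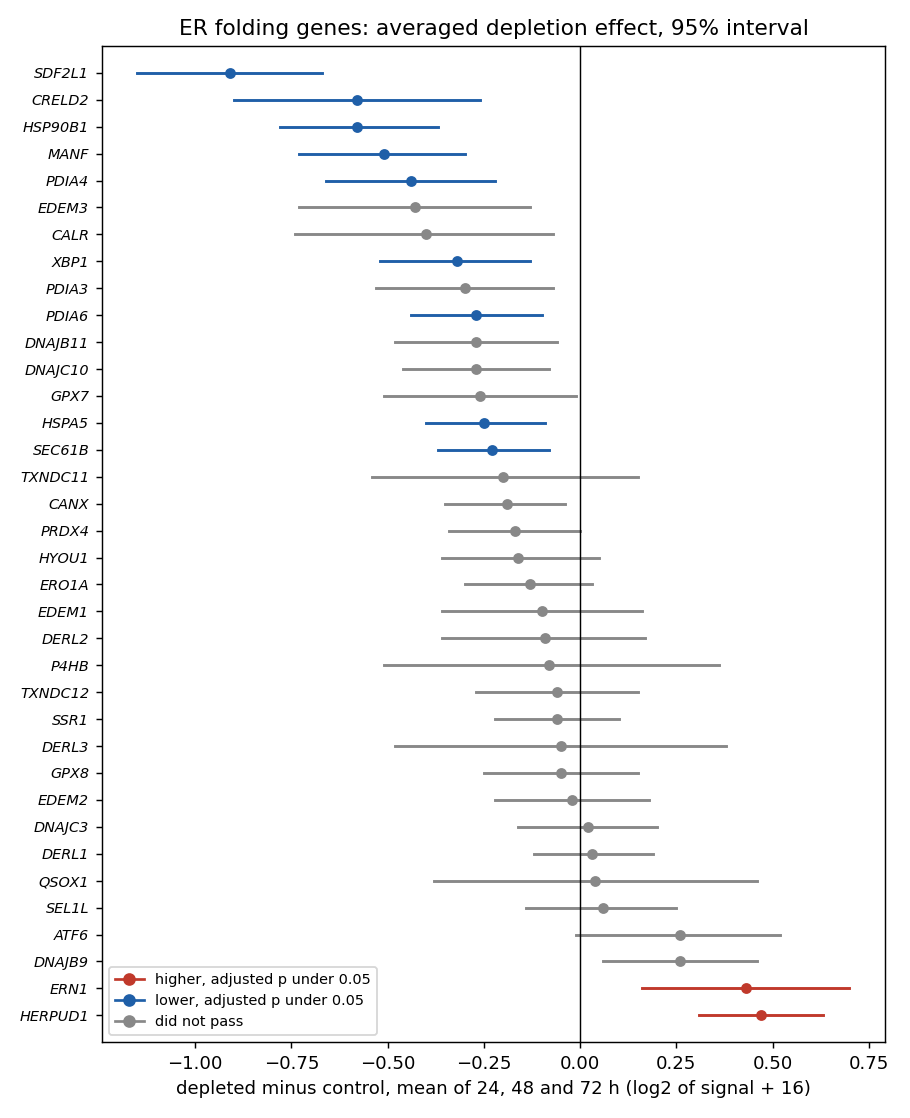
Depleted minus control averaged over 24, 48 and 72 h, in log2 of signal + 16, for the 36 genes tested; points are estimates and bars 95% intervals for single genes, coloured by whether the adjusted p was under 0.05. SDF2L1 lies farthest to the left at -0.91 and HERPUD1 farthest to the right at 0.47.

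SDF2L1, a partner of the J-domain protein DNAJB11, had the largest averaged fall of the 36 genes. Signals here and below are MAS5 values in the order of sets 1, 2 and 3. At 24 h SDF2L1 read 448.4, 268.4 and 371.8 in control and 170.8, 131.8 and 211.0 in depleted arrays. At 48 h SDF2L1 read 435.6, 339.4 and 417.3 against 264.9, 204.0 and 253.0. At 72 h SDF2L1 read 397.2, 154.3 and 357.7 against 127.6, 113.1 and 150.6. Every depleted array lay below every control array of its time. The averaged change was -0.91 (SE 0.11, 95% interval -1.15 to -0.67), a 1.88-fold lower level on the scale of signal + 16 (adjusted p = 0.000185, 0.00646 without the block, 0.00167 without set 2). The call held in each of the 18 fits that left out 1 array. Changes at 24, 48 and 72 h were -1.01, -0.69 and -1.03, with adjusted p = 0.0154, 0.119 and 0.00324. The 24 h call was lost without the control array of set 1 or the depleted array of set 1 or 2 at that time, with adjusted p of up to 0.0714.

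HSP90B1, which encodes the HSP90 family chaperone GRP94, was lower in depleted cells in all 9 pairs of arrays of the same set and time. For this and the counts of pairs below, the share among all genes was not counted. At 24 h HSP90B1 read 1644.5, 1128.8 and 2257.8 in control and 1015.0, 837.2 and 1603.5 in depleted arrays. At 48 h HSP90B1 read 2091.4, 1425.7 and 2592.7 against 1617.1, 792.2 and 1494.6. At 72 h HSP90B1 read 2344.1, 1349.8 and 2377.3 against 1562.8, 1055.9 and 1498.0. The groups overlapped at each time, although each depleted array lay below the control of its set. On average HSP90B1 changed by -0.58 (SE 0.09, 1.49-fold lower, adjusted p = 0.00139, 0.132 without the block, 0.0203 without set 2). The probe set used is of the type whose probes may match related sequences, and a second, dimmer one changed by -0.35 (SE 0.32, adjusted p = 0.506). The mean of all its probe sets was at -0.46 (0.0671).

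HSPA5, the gene of BiP, was lower by a smaller amount. At 24 h HSPA5 read 4160.2, 3927.8 and 4104.4 in control and 3515.3, 2528.1 and 3042.3 in depleted arrays. At 48 h HSPA5 read 4466.4, 3376.5 and 4484.0 against 3831.4, 3101.7 and 3515.9. At 72 h HSPA5 read 4753.3, 3341.5 and 4529.6 against 4343.4, 3575.8 and 3978.4. The groups were apart at 24 h and overlapped later, and at 72 h the depleted array of set 2 was above its control. On average HSPA5 changed by -0.25 (SE 0.07, 1.19-fold lower, adjusted p = 0.0338, 0.288 without the block, 0.0616 without set 2). This call was lost in 11 of the 18 fits without 1 array. A second, dimmer HSPA5 probe set changed by -0.05 (adjusted p = 0.823), and the mean of all its probe sets by -0.15 (0.143).

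MANF, a stress-induced ER protein that binds BiP, was lower in all 9 pairs. At 24 h MANF read 873.3, 595.9 and 628.5 in control and 620.4, 260.2 and 482.2 in depleted arrays. At 48 h MANF read 844.0, 624.6 and 732.6 against 714.0, 369.4 and 637.3. At 72 h MANF read 705.5, 553.3 and 748.3 against 545.5, 371.2 and 513.3. The groups were apart at 72 h and overlapped at 24 and 48 h. On average MANF changed by -0.51 (SE 0.10, 1.43-fold lower, adjusted p = 0.00436, 0.121 without the block, 0.044 without set 2).

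CRELD2, a stress-induced ER protein with EGF-like domains, was lower in 8 of 9 pairs. At 24 h CRELD2 read 899.6, 560.9 and 582.9 in control and 381.4, 460.2 and 588.5 in depleted arrays. At 48 h CRELD2 read 517.6, 756.1 and 753.5 against 425.6, 576.8 and 586.9. At 72 h CRELD2 read 527.1, 675.1 and 473.8 against 292.4, 210.8 and 383.3. The groups were apart at 72 h, while at 24 h the depleted array of set 3 was slightly above its control. On average CRELD2 changed by -0.58 (SE 0.15, 1.49-fold lower, adjusted p = 0.019, 0.0452 without the block), and it did not pass without set 2 (adjusted p = 0.0983).

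No J-domain partner of BiP was called on average through its chosen probe set. DNAJB11 (-0.27, SE 0.10, adjusted p = 0.0819) and the disulfide reductase DNAJC10 (-0.27, SE 0.09, 0.0509) did not pass, although 2 further DNAJC10 probe sets were called lower (-0.32, adjusted p = 0.0147, and -0.51, 0.0229). DNAJC3, the co-chaperone P58IPK, was at 0.02 (SE 0.08, 95% interval -0.16 to 0.20). DNAJB9, a stress-induced partner that delivers proteins for degradation, was at 0.26 (SE 0.09, adjusted p = 0.0799), and its 2 other probe sets were called higher at 0.35 (adjusted p = 0.0464) and 0.55 (0.00203). HYOU1, the nucleotide exchange factor of BiP, was at -0.16 (SE 0.09, 95% interval -0.36 to 0.05) and lower in 5 of 9 pairs.

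**Figure D2:**
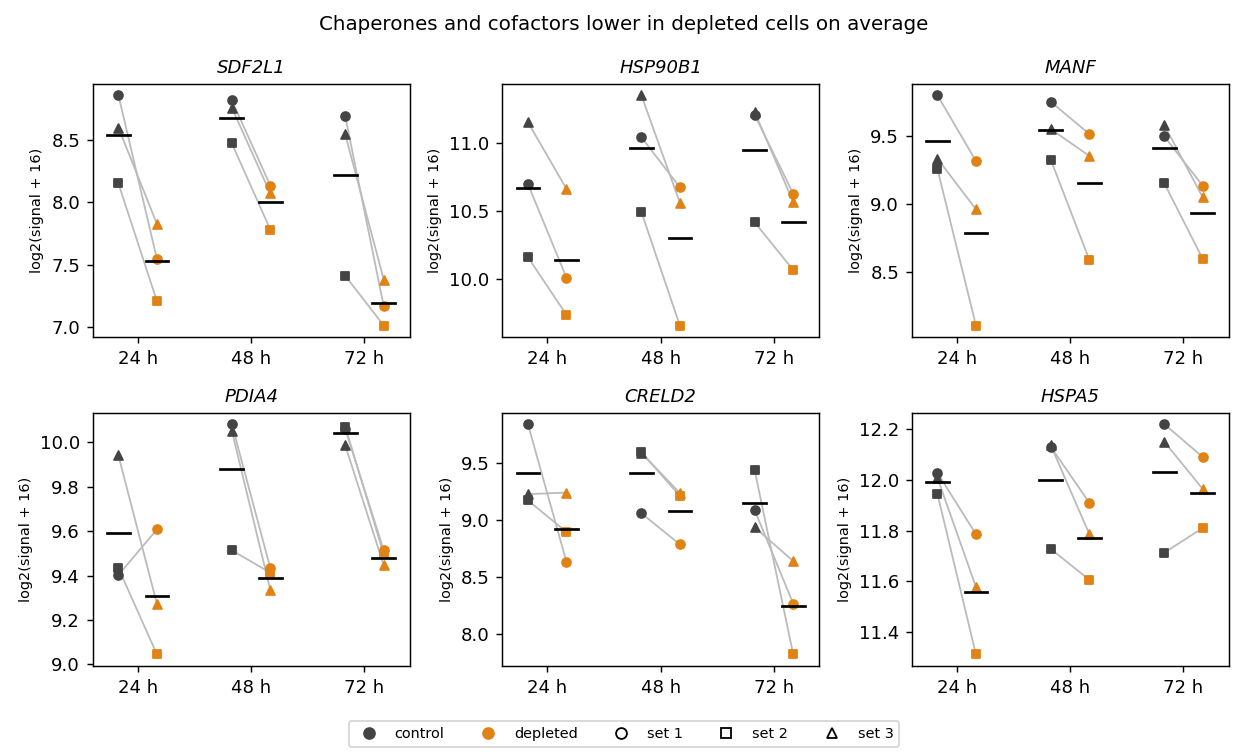
log2(signal + 16) on each array for 6 genes lower on average, by time (h) and medium, with a marker shape for each set, grey lines joining arrays of 1 set and black bars at group means of 3 arrays; vertical axes differ between panels and do not start at 0. SDF2L1 is lower in depleted cells in every set at every time. HSPA5 of set 2 at 72 h, PDIA4 of set 1 at 24 h and, slightly, CRELD2 of set 3 at 24 h ran the other way.

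Among the protein disulfide isomerases, PDIA4 and PDIA6 were called lower. At 24 h PDIA4 read 660.6, 675.4 and 966.7 in control and 764.3, 512.2 and 602.2 in depleted arrays. At 48 h PDIA4 read 1067.7, 715.1 and 1045.6 against 675.2, 665.4 and 629.5. At 72 h PDIA4 read 1051.7, 1059.1 and 998.3 against 714.8, 706.0 and 681.2. The groups overlapped at 24 h, where set 1 was higher after depletion, and were apart at 48 and 72 h. The averaged change of PDIA4 was -0.44 (SE 0.10, 1.36-fold lower, adjusted p = 0.0116, 0.052 without the block, 0.0345 without set 2), and its other probe set was at -0.28 (adjusted p = 0.115).

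PDIA6, an isomerase that also associates with BiP, was lower in all 9 pairs. At 24 h PDIA6 read 2805.7, 2032.2 and 3093.4 in control and 2610.4, 1453.8 and 2328.5 in depleted arrays. At 48 h PDIA6 read 3300.8, 2306.4 and 3303.1 against 2604.5, 2115.4 and 2505.8. At 72 h PDIA6 read 2926.0, 2420.5 and 3068.1 against 2790.1, 2075.6 and 2522.2. The groups overlapped at each time, with set 2 lowest in both media. Averaged over time PDIA6 changed by -0.27 (SE 0.08, 1.2-fold lower, adjusted p = 0.0337), which did not pass without the block (0.36), without set 2 (0.0695) or in 11 of 18 fits without 1 array. The 3 other PDIA6 probe sets were at -0.23 to -0.26 with adjusted p of 0.0789 to 0.0934.

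The other thioredoxin-fold enzymes did not pass the test with all sets. PDIA3, which serves glycoproteins held by calnexin and calreticulin, was at -0.30 (SE 0.11, adjusted p = 0.0732) and lower in 8 of 9 pairs. P4HB, the founding isomerase of the family, was at -0.08 with a wide interval of -0.51 to 0.36 (adjusted p = 0.846). Its mean difference was -0.31, 0.42 and -0.34 in sets 1, 2 and 3, and without set 2 it was called lower (adjusted p = 0.0392). TXNDC11 was at -0.20 (95% interval -0.54 to 0.15) and TXNDC12 at -0.06 (-0.27 to 0.15).

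The FAD-using oxidases were not called in the averaged effect. At 24 h ERO1A read 1427.9, 832.2 and 1022.4 in control and 1174.3, 731.7 and 772.8 in depleted arrays. At 48 h ERO1A read 1453.8, 1062.1 and 1027.5 against 1373.4, 778.5 and 899.7. At 72 h ERO1A read 1698.2, 934.4 and 1021.9 against 1842.2, 900.9 and 1259.1. Depleted arrays were below their controls in each set at 24 and 48 h and above them in sets 1 and 3 at 72 h, with overlap throughout. The averaged change of ERO1A was -0.13 (SE 0.08, 95% interval -0.30 to 0.03, adjusted p = 0.272). Its other probe sets disagreed, with 1 called lower at -0.32 (adjusted p = 0.0294) and 1 at 0.03 (0.891).

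ERO1B and QSOX1 were dim, and the values of their probe sets set only loose limits. At 24 h ERO1B read 14.2, 43.5 and 9.3 in control and 23.7, 8.5 and 21.0 in depleted arrays. At 48 h ERO1B read 17.4, 3.5 and 28.0 against 13.3, 15.6 and 16.2, and at 72 h it read 17.7, 12.5 and 16.0 against 17.5, 25.8 and 16.3. Fitted without the filter, ERO1B changed by 0.03 (SE 0.19, 95% interval -0.38 to 0.44, adjusted p = 0.963). At 24 h QSOX1 read 24.5, 27.0 and 13.1 in control and 12.6, 33.4 and 24.2 in depleted arrays. At 48 h QSOX1 read 22.1, 41.2 and 23.9 against 3.8, 55.2 and 23.2, and at 72 h it read 8.3, 10.5 and 26.2 against 27.5, 26.2 and 10.2. No order between media held over the sets for either gene. QSOX1 changed by 0.04 (SE 0.20, 95% interval -0.38 to 0.46, adjusted p = 0.926), and its sign turned under other scalings.

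The ER peroxidases, which consume the hydrogen peroxide that oxidative folding yields, were not called on average with all sets. PRDX4 was at -0.17 (SE 0.08, adjusted p = 0.171) and lower in 8 of 9 pairs. GPX7 was at -0.26 on average (adjusted p = 0.16) and was called lower at 72 h (-0.68, SE 0.20, adjusted p = 0.0418, 0.111 without the block, lost in 8 of 18 fits without 1 array). Without set 2 the averaged GPX7 change was called too (0.0452), with set means of -0.52, -0.02 and -0.23. GPX8 was higher in depleted cells at 24 h and lower at 72 h. At 24 h GPX8 read 252.9, 177.1 and 141.6 in control and 430.9, 260.7 and 259.1 in depleted arrays. At 48 h GPX8 read 269.2, 170.6 and 217.8 against 260.1, 148.7 and 207.9. At 72 h GPX8 read 344.6, 168.0 and 236.6 against 219.1, 105.5 and 114.2. All depleted arrays were above all controls at 24 h, and each was below the control of its set at 72 h, when the groups overlapped. The changes were 0.69 at 24 h (SE 0.16, adjusted p = 0.041), -0.10 at 48 h (0.811) and -0.72 at 72 h (0.00946). Without the block neither passed (0.607 at 24 h and 0.273 at 72 h). The 24 h call was lost without set 2 (0.0973) and in 12 of 18 fits without 1 array, while the 72 h call was kept in all 18 and without set 2 (0.033) but lost without set 1 (0.139) or set 3 (0.156).

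The lectin chaperones did not pass in the averaged effect with all sets. Calnexin (CANX) was at -0.19 (SE 0.07, adjusted p = 0.0911) and lower in all 9 pairs, and 1 dimmer probe set was called lower at -0.50 (adjusted p = 0.0427). Calreticulin (CALR) was at -0.40 (SE 0.16, adjusted p = 0.0997) and lower in 8 of 9 pairs, with its 2 other probe sets at -0.52 and -0.83. Its set means were -0.48, -0.03 and -0.71, and without set 2 it was called lower (0.0269). Of the EDEM proteins, which mark misfolded glycoproteins for disposal, EDEM3 was called lower at 72 h (-1.08, SE 0.24, adjusted p = 0.00982, 0.0271 without the block). That call was lost without the control 72 h array of set 1 (adjusted p = 0.0535), and on average EDEM3 was at -0.43 (0.0562). Of its 2 other probe sets above the filter neither was called on average, and 1 had the opposite sign, at 0.03. EDEM1 and EDEM2 were at -0.10 and -0.02. The derlins, membrane proteins of the export route, were at 0.03 for DERL1, -0.09 for DERL2 and -0.05 for DERL3.

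HERPUD1, a membrane protein of the degradation complex, was higher in depleted cells in all 9 pairs. At 24 h HERPUD1 read 1098.2, 1582.5 and 841.9 in control and 2065.4, 2983.2 and 1723.7 in depleted arrays. At 48 h HERPUD1 read 1311.1, 1677.4 and 873.1 against 1742.5, 1805.8 and 1224.7. At 72 h HERPUD1 read 2113.9, 2735.1 and 1554.9 against 2213.7, 2971.3 and 1836.0. The groups were apart at 24 h and overlapped at 48 and 72 h. Averaged over time HERPUD1 changed by 0.47 (SE 0.07, 95% interval 0.31 to 0.63, 1.39-fold higher, adjusted p = 0.00108, 0.175 without the block, 0.00916 without set 2). By time it was 0.94 (SE 0.13, adjusted p = 0.00212), 0.33 (0.237) and 0.14 (0.533).

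SEL1L, the adaptor of the ubiquitin ligase SYVN1, was higher in depleted cells at 24 h and not on average (0.06, SE 0.09, adjusted p = 0.727). At 24 h SEL1L read 528.6, 654.0 and 373.3 in control and 831.1, 991.4 and 619.0 in depleted arrays. At 48 h SEL1L read 549.0, 737.4 and 484.1 against 590.0, 539.9 and 527.2. At 72 h SEL1L read 959.5, 960.5 and 710.7 against 681.8, 672.2 and 613.6. Depleted arrays were higher in each set at 24 h with some overlap, and at 72 h all lay below the controls. The change was 0.64 at 24 h (SE 0.16, adjusted p = 0.0475, 0.441 without the block, 0.087 without set 2), a call lost in 14 of 18 fits without 1 array, and -0.40 at 72 h (0.112). The 3 other SEL1L probe sets did not show the 24 h difference, at 0.02, 0.12 and 0.02, and at 72 h they were at -0.32, -0.83 and -0.52.

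Of the sensors and their transcription factor, XBP1 was lower and ERN1 higher on average. At 24 h XBP1 read 1537.9, 881.4 and 1137.2 in control and 971.1, 961.8 and 800.9 in depleted arrays. At 48 h XBP1 read 1276.0, 825.0 and 990.2 against 899.6, 773.9 and 933.6. At 72 h XBP1 read 1228.4, 1063.3 and 1251.2 against 1018.5, 779.6 and 879.5. The groups were apart at 72 h, and in set 2 at 24 h the depleted array was the higher. Averaged over time XBP1 changed by -0.32 (SE 0.09, 1.25-fold lower, adjusted p = 0.0304, 0.196 without the block, 0.0298 without set 2), lost in 11 of 18 fits without 1 array. The mean of all XBP1 probe sets, which includes those below the filter, was at -0.13 (0.252). The signal does not separate spliced from unspliced XBP1 mRNA.

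At 24 h ERN1 read 91.1, 88.1 and 59.9 in control and 142.3, 96.8 and 123.0 in depleted arrays. At 48 h ERN1 read 76.4, 130.5 and 65.3 against 85.5, 78.5 and 83.8. At 72 h ERN1 read 133.6, 91.6 and 130.8 against 241.8, 222.5 and 206.3. All depleted arrays were above all controls at 24 and 72 h, and the groups overlapped at 48 h. Averaged over time ERN1 changed by 0.43 (SE 0.13, 1.35-fold higher, adjusted p = 0.0339, 0.0911 without the block, 0.0108 without set 2), lost in 12 of 18 fits without 1 array. The call rests on this probe set, since the 2 dimmer ones were at 0.20 and 0.06. ATF6, the sensor cleaved in the Golgi, was at 0.26 (SE 0.12, adjusted p = 0.186) with its other probe sets between 0.20 and 0.41.

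SEC61B, a subunit of the protein channel, was lower in all 9 pairs. At 24 h SEC61B read 1771.8, 2183.2 and 1653.7 in control and 1156.5, 1769.9 and 1434.8 in depleted arrays. At 48 h SEC61B read 1676.2, 2146.9 and 1739.1 against 1523.3, 1990.0 and 1736.5. At 72 h SEC61B read 1193.2, 1646.8 and 1312.4 against 1032.4, 1362.4 and 1127.9. The groups overlapped at each time, and at 48 h in set 3 both arrays read nearly alike. Averaged over time SEC61B changed by -0.23 (SE 0.07, 1.17-fold lower, adjusted p = 0.0382), which did not pass without the block (0.378), without set 2 (0.114) or in 16 of 18 fits without 1 array. The mean of its 2 probe sets, of which only 1 lay above the filter, was at 0.07 (0.706). SSR1, a translocon-associated subunit, was at -0.06 on average (SE 0.08, adjusted p = 0.644). Its 5 other probe sets were all below 0 on average, and 1 of them was called lower (-0.25, adjusted p = 0.0346).

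**Figure D3:**
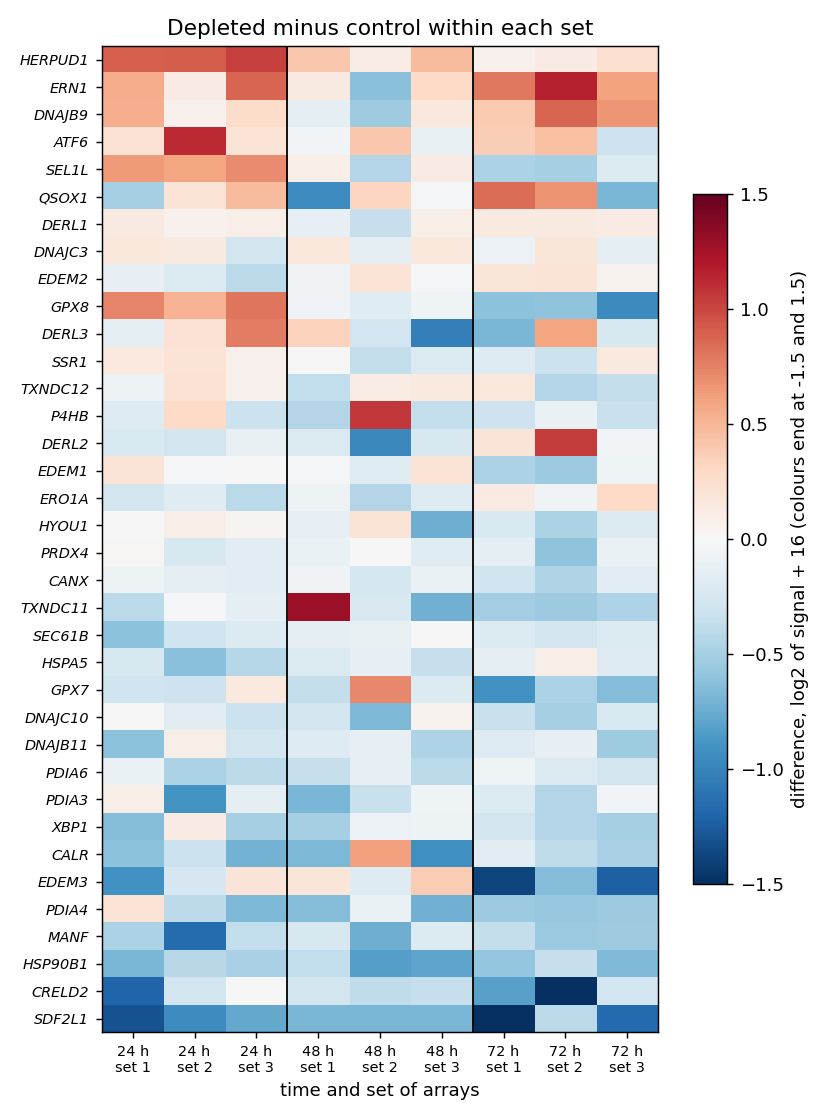
Depleted minus control within each set and time (9 columns, log2 of signal + 16) for the 36 genes, ordered by their averaged change; blue is lower and red higher in depleted cells, and colours end at -1.5 and 1.5. HSP90B1, PDIA6, MANF, SDF2L1, CANX and SEC61B are below 0 in all 9 columns and HERPUD1 is above 0 in all 9. The share of all genes on the same side of 0 in all 9 columns was not counted.

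Calls were also counted at each time. At 24 h HERPUD1, SEL1L and GPX8 were called higher and SDF2L1 lower, 3 and 1 of 36 (8.33% and 2.78%), where 1.98% of all genes were higher and 0.982% lower. Without the block no gene of the 36 was called at 24 h and 6 had an unadjusted p under 0.05, against 0.3% called and 9.23% unadjusted among all genes. At 48 h limma called none of the 36, and 6 had an unadjusted p under 0.05 (2 without the block). Of all genes 0.568% were called higher and 0.244% lower at 48 h, 16.4% had an unadjusted p under 0.05, and without the block 0.106% were called. The median change at 48 h was -0.18 with 27 of 36 below 0, against a median of 0.03 and 46.6% below 0 over all genes. At 72 h SDF2L1, HSP90B1, CRELD2, EDEM3, GPX7 and GPX8 were lower (16.7% of the 36, against 8.65% of all genes) and ERN1 and DNAJB9 higher (5.56%, against 6.21%). Without the block EDEM3 alone was called at 72 h, where 4.38% of all genes were. The 72 h calls of HSP90B1 (-0.53, SE 0.16, adjusted p = 0.0465), ERN1 (0.84, SE 0.22, 0.0203), DNAJB9 (0.64, SE 0.16, 0.0178) and CRELD2 (-0.91, SE 0.26, 0.0323) were lost in 14, 5, 5 and 4 of 18 fits without 1 array. CRELD2 was lost without the control or depleted 72 h array of set 1 or 2, with adjusted p of up to 0.15. Of these, ERN1 alone passed without set 2 (0.0304). Every call at 24 and 72 h was lost without set 1 (adjusted p of 0.103 to 0.401) and without set 3 (0.0886 to 0.389).

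**Figure D4:**
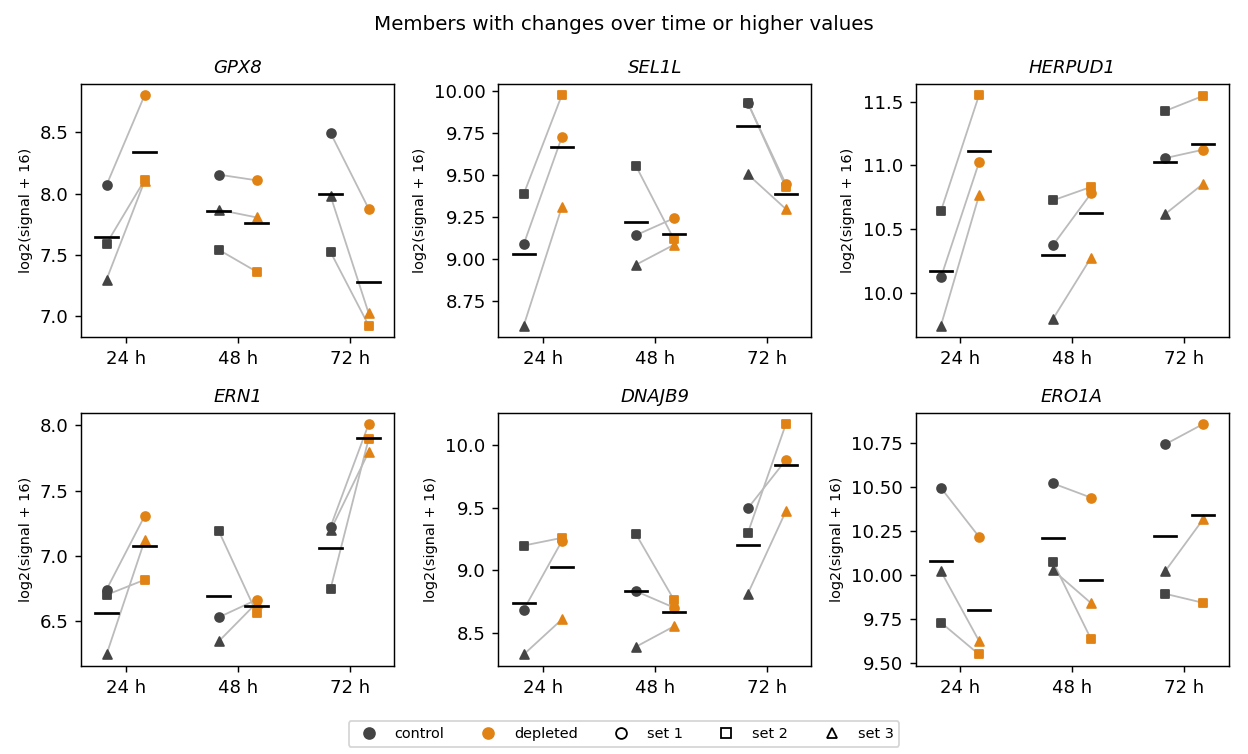
log2(signal + 16) on each array for 6 genes by time (h) and medium, with a marker shape for each set, grey lines joining arrays of 1 set and black bars at group means of 3 arrays; vertical axes differ between panels and do not start at 0. GPX8 is above control at 24 h and below it at 72 h, and the HERPUD1 difference is widest at 24 h.

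The effect of depletion differed between the times for GPX8, SEL1L and HERPUD1 by an F-test over both interaction contrasts (adjusted p = 0.012, 0.0384 and 0.0479), 3 of 36 genes where 4.04% of all genes were called. In the fits without 1 array the F-test call was lost in 0 of 18 for GPX8, 14 for SEL1L and 17 for HERPUD1. Without set 2 none of the 3 passed (0.0689, 0.111 and 0.155), nor without set 1 (0.33 to 0.439) or set 3 (0.3 to 0.405). From 24 to 72 h the effect fell by 1.41 (SE 0.23, adjusted p = 0.00455) for GPX8, by 1.04 (SE 0.22, 0.0175) for SEL1L and by 0.80 (SE 0.18, 0.0237) for HERPUD1. Such a fall was called in 3.47% of all genes and a rise in 1.83%, and no gene of the 36 was called for a rise. Without the block none of the 36 was called by either test, where 0.398% and 0.714% of all genes were. Without the block, 4 and 2 of the 36 had an unadjusted p under 0.05 in these tests, as had 8.29% and 10.7% of all genes. The GPX8 change from 24 to 72 h was kept in all 18 fits without 1 array and without set 2 (0.0347), and lost without set 1 (0.187) or set 3 (0.173). For SEL1L it was lost without the control 72 h array of set 1 or the control 24 h array of set 3 (up to 0.0536), and for HERPUD1 in 9 of 18 fits. Without set 2 neither passed (0.0529 and 0.0804). The other SEL1L probe sets had F-test adjusted p of 0.229 to 0.828, and the other HERPUD1 probe set, which was dim, had 0.693. Of the further probe sets looked at, 1 of DNAJB9 (0.0419) and 1 of SSR1 (0.0124) passed the F-test. That of SSR1 was at 0.48, 0.05 and -0.87 at 24, 48 and 72 h.

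Within control cells, HERPUD1 (0.86, SE 0.13, adjusted p = 0.00506) and SEL1L (0.76, SE 0.16, 0.0342) rose from 24 to 72 h, and none of the 36 was called lower. Neither passed without set 2 (0.0525 and 0.0605), and SEL1L was lost in 8 of 18 fits without 1 array. Of all genes 0.998% rose and 0.576% fell. In depleted cells HERPUD1 was at 0.06 (adjusted p = 0.82) and SEL1L at -0.28 (0.285) over the same interval. The control arrays of 24 and 72 h enter both these comparisons and those of depletion at each time, so the results are not independent of each other. Within depleted cells, ERN1 (0.82, adjusted p = 0.029), DNAJB9 (0.81, 0.00706) and ERO1A (0.54, SE 0.13, 0.0195) rose from 24 to 72 h and GPX8 fell by 1.06 (SE 0.16, 0.00166). Of all genes 3.87% rose and 7.12% fell in depleted cells. The ERO1A rise was lost without the depleted 24 or 72 h array of set 1 or 3, with adjusted p of up to 0.0859. The ERN1 rise was lost in 5 of 18 fits without 1 array, with adjusted p of up to 0.132. The changes of DNAJB9 and GPX8 were kept in all 18. All 4 were kept without set 2, and none passed without set 1 or set 3. Without the block none of the 36 was called in either medium, where 0.195% of all genes were in control and 1.98% in depleted cells, and 3 and 5 of the 36 had an unadjusted p under 0.05, as had 6.76% and 13.9% of all genes.

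Genes outside the 40 were taken from lists of the same pathways, to be read against the 8.4% higher and 8.81% lower of all genes. Of 25 other ER folding helpers tested, 2 were higher and 2 lower on average (median -0.05), among them AGR3, an isomerase-like protein of secretory epithelia (1.09, SE 0.11, adjusted p = 3.86e-05), PPIC, a cyclophilin (0.36, 0.0197), and FKBP11, a prolyl isomerase (-0.58, 0.00408). Of 18 genes of N-glycan transfer and the calnexin cycle none was higher and 3 were lower (median -0.16). These were DAD1, a subunit of the oligosaccharyltransferase (-0.40, adjusted p = 0.0018), GANAB, the glucosidase II catalytic subunit (-0.43, 0.0211), and UGGT1, the folding sensor that re-glucosylates glycoproteins (-0.28, 0.0298). Of 19 translocon and signal recognition genes SRP14 was lower (-0.35, 0.00707), with a median of -0.10. Of 21 other degradation genes the lectin ERLEC1 was higher (0.27, 0.0266) and UFD1 lower (-0.31, 0.0257), with a median of -0.03. Of 18 genes of COPII export and retrieval 2 were lower and none higher (median -0.15), the receptor KDELR3 (-0.43, 0.00471) and TMED2 (-0.31, 0.0293). Of the genes named from these 5 lists, AGR3 alone passed without the block (0.000149), and the others had adjusted p of 0.072 to 0.299.

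The PERK and ATF4 arm of the stress response turns down general translation and turns on genes of amino acid supply. Of 20 genes in a list of this arm and of other stress sensors, such as the CREB3 family, 7 were higher and 2 lower on average, with a median of 0.18, and 3 and 1 were called without the block. The lower genes, NUCB2 (-0.38) and BHLHA15 (-0.78), named after their values were seen, were listed with the other stress genes. ATF3, a stress-induced transcription factor, was at 0.99 (SE 0.12, adjusted p = 0.000192), with 0.59, 0.55 and 1.82 at 24, 48 and 72 h. ASNS, asparagine synthetase, was at 0.61 (SE 0.08, 0.00034), with 1.41, 0.23 and 0.20, and the pseudokinase TRIB3 at 0.56 (SE 0.10, 0.00292). Of 12 other thiol redox enzymes, the flavoproteins TXNRD1 (0.98, SE 0.08, adjusted p = 8.33e-06) and GSR (0.43, SE 0.11, 0.0184) were higher and the selenoprotein SELENOF was lower (-0.26, 0.026). Without the block TXNRD1 passed (0.00165), and GSR (0.42) and SELENOF (0.274) did not. Of 17 secreted proteins made by Caco-2 cells, clients of the folding machinery, 8 were lower and 1 higher, with a median of -0.29. Without the block 7 were lower. APOB, the large lipoprotein component, was at -0.94 (SE 0.07, adjusted p = 4.36e-06), with -0.70, -0.36 and -1.76 at 24, 48 and 72 h, beside AFP (-2.23) and ALB (-2.18).

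Counts were repeated under other scalings of the arrays. After quantile normalisation the median averaged change of the 36 genes was -0.11, with 1 called higher and 6 lower. XBP1 (adjusted p = 0.0504), HSPA5 (0.0741), ERN1 (0.0765), PDIA6 (0.147) and SEC61B (0.183) were then not called. After centring each array on its 75th percentile it was -0.21, with 1 higher and 13 lower. Centring moved the median of all genes at 48 h from 0.03 to -0.10, where that of the 36 genes moved from -0.18 to -0.30. Over all genes the calls were 1035 higher and 1085 lower as scaled by the authors, 914 and 1054 after quantile normalisation, and 728 and 1300 after centring. Of the 36 genes, 20 had 2 or more probe sets above the filter, and in 5 of these another probe set had the opposite sign.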

How the data were processed

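The deposited table holds MAS5 signals, intensities on a linear scale, as the authors made them, per the submitters' processing notes, with no MAS5 version given in the sources used here. On each array the mean of the deposited intensity values after trimming 2% at each end was 100.011 to 100.014, so the arrays had been scaled to a common level. Detection calls were not used here. Control probe sets (62 of 54675) were left out, and the 27307 probe sets with a mean log2(signal + 16) of at least 5.1546 (a signal of 19.62) were tested. A pseudocount of 16 understates the change of dim genes.

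Group means and the set were fitted over all 18 arrays with limma 3.58.1 (R 4.3.3), with Benjamini-Hochberg adjustment over the 27307 probe sets and a threshold of 0.05. Numbers pair the samples: after group means were removed, arrays correlated at 0.302 to 0.602 within sets (45 pairs) and -0.754 to 0.163 between sets, and all 18 were closest to an array of their own set. Removing group means taken over all sets itself lowers the correlations between sets, so this contrast was partly fixed in advance. The numbering comes from the titles. The model was tested on simulated data. The set effects were built into these data, so the simulation cannot show whether the pairing by set is right. Printed array by array were up to 12 genes called in the averaged effect, up to 4 called by the F-test, and always ERO1A, ERO1B, QSOX1, HSPA5, XBP1 and HERPUD1. Other genes named with a call at 1 time were chosen after their values were seen. Up to 3 called genes of each pathway list were named. The 40 genes and all lists were chosen with earlier results of these data known. Alternatives were no block, pseudocounts of 1 and 64, other filters and scalings, the mean of all probe sets, and each array or set left out. Features of the proteins were not analysed here.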

Additional observations from a re-analysis of the deposited data

Results flagged for a closer look

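The difference between depleted and control cells changed between the times, by an F-test over the interaction contrasts in limma, for HERPUD1 (adjusted p = 0.0479), SEL1L (0.0384) and GPX8 (0.012). GPX8 was at 0.69, -0.10 and -0.72 on the log2 scale at 24, 48 and 72 h, SEL1L at 0.64, -0.07 and -0.40, and HERPUD1 at 0.94, 0.33 and 0.14. The call was lost in 17, 14 and 0 of 18 fits without 1 array for HERPUD1, SEL1L and GPX8. None of the 3 passed without set 2 (0.155, 0.111 and 0.0689), without set 1 or set 3, or without the block (0.839, 0.442 and 0.473). Groups of 3 arrays are too small to look for single arrays that stand apart.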

How the results depend on the processing

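Counts are of the genes called, in either direction, among those tested. Tested were 37 with no filter on low values and 34 with the filter at the 75th percentile or the mean of all probe sets. In all other settings 36 were tested. Without the replicate block the counts were 0 at 24 h (4 with it), 0 at 48 h (0), 1 at 72 h (8), 2 in the averaged effect (11), 0 for an effect that differs between times (3), 0 for 72 h minus 24 h (3), 0 in control cells over time (2) and 0 in depleted cells over time (4). With no filter on low values they were 1 at 24 h, 3 at 72 h, 6 averaged, 1 for an effect that differs between times, 1 for 72 h minus 24 h, 1 in control and 2 in depleted cells over time. With the filter at the 75th percentile they were 8 at 24 h, 2 at 48 h, 18 averaged, 4 in control and 7 in depleted cells over time. A pseudocount of 64 gave 7 at 24 h, 1 at 48 h, 4 in control and 7 in depleted cells, and a pseudocount of 1 gave 2 at 24 h. Quantile normalisation gave 7 averaged. Centring on the 75th percentile gave 2 at 24 h, 1 for an effect that differs between times and 1 in control cells. The mean of all probe sets of a gene gave 1 for 72 h minus 24 h and 1 in control cells. Leaving out 1 array or set gave 0 to 4 calls at 24 h, 0 to 1 at 48 h, 0 to 8 at 72 h, 1 to 11 averaged, 0 to 3 for an effect that differs between times, 0 to 3 for 72 h minus 24 h, 0 to 2 in control cells over time and 0 to 6 in depleted ones. For the other filters, the pseudocounts, the mean of all probe sets and the fits without 1 array, the share called among all genes was not counted. Those counts therefore do not show a change particular to these genes. Fits without a set have fewer arrays, and other filters test fewer or more probe sets. The cause of the other changes was not tested. Single genes that turned sign were not called in either setting except SEC61B. With the mean of its probe sets, not all of them above the filter, SEC61B was at 0.07 (adjusted p = 0.706). GPX8 was at 0.05 with that mean and at -0.09 to 0.00 over the fits without 1 array or set, and SEL1L at -0.13 and -0.02 to 0.15. QSOX1 was at -0.01 with a pseudocount of 1, 0.00 after quantile normalisation, -0.01 after centring and -0.14 to 0.18 over the fits without 1 array or set. The number of arrays and, for QSOX1 and ERO1B, signals near background limit what can be seen.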
